A study of Mus musculus with 16 samples.

Results

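The 9 genes described here encode parts of the transforming growth factor beta (TGF-beta) pathway: the ligands Tgfb1, Tgfb2 and Inhba, the latency protein Ltbp1, the receptors Tgfbr1 and Tgfbr2, the signal transducer Smad3, and the inhibitors Smad7 and Skil. They are 9 of 21883 protein-coding genes placed on chromosomes 1 to 19, X and Y by a RefSeq table of GRCm38.p6, the assembly behind mm10. Every open chromatin region that overlapped the span of one of them, or lay within 50 kb of either end, was taken. That gave 240 regions, of 129361 within 50 kb of any protein-coding gene and 165616 in all. The genes are grouped by their pathway, and no measured value enters the rule.

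TGF-beta ligands are secreted in a latent complex that LTBP proteins tie to the extracellular matrix, and the freed ligand binds TGFBR2, which then phosphorylates and activates TGFBR1. The active receptor phosphorylates SMAD2 and SMAD3, which enter the nucleus with SMAD4, while SMAD7 blocks the receptor and SKIL (SnoN) represses SMAD target genes. In fibroblasts the pathway promotes matrix production and a mesenchymal state, and its blockade is widely used to help fibroblasts become pluripotent in culture.

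The study followed mouse cells through chemical reprogramming with ATAC-seq, an assay in which a transposase cuts and tags accessible DNA. The 16 samples form 8 stages of 2 samples each. Day 0 is mouse embryonic fibroblasts (MEF) from 129XOG2 E13.5 embryos, used at passages 1 to 3. Days 2, 4, 6, 8, 10 and 12 are the same kind of fibroblasts kept for that long in a reprogramming medium whose components are not given in the sources used here, so whether it held a TGF-beta inhibitor is not known from them. The iPSC stage is the induced pluripotent stem cells that resulted, cultured on feeder cells with LIF, CHIR99021 (an inhibitor of GSK3) and PD0325901 (an inhibitor of MEK). All groups share the 129XOG2 background. OG2 mice carry a green fluorescent reporter under Pou5f1 sequences.

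The authors deposited 1 peak list per stage, so there is no spread between replicates, no test between stages was run, and every interval below is an exact Clopper-Pearson 95% interval that covers counting error only. Regions near one another share a gene and a library and are not independent. A region counts as covered at a stage if a peak of that list overlaps it by at least 1 bp. Ranks are given as the percentile of a peak's score within its own list, the score being the authors' own value per peak, so a rank in one list cannot be set against a rank in another as a change.

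The shortest list was that of day 12, with 31915 peaks, and the longest that of day 2, with 83022. Their background pileup, the lowest local read depth recovered from the deposited values, lay between 0.248 (day 12) and 3.08 (day 2), and was close at both end points (1.90 in iPSC and 1.96 at day 0). Because a deeper list finds weaker regions, counts are repeated with every deeper list scaled down to the background of day 8 (0.682) or of day 12. This scaling did not make the lists equally long. At the background of day 12, 16224 peaks were kept at day 0, 13925 at day 6 and 15581 in iPSC. The lists of days 8, 10 and 12 then held 27801, 26333 and 31915 peaks. Peaks within 1 kb of a gene end matched the labels in part. In iPSC 7 of 8 pluripotency genes had a covered end (all except Esrrb), against 0 of 8 at day 0, while 7 of 8 fibroblast genes had one in iPSC (all except Twist2), against 8 of 8 at day 0. The part that feeder cells have in the iPSC list was not tested. The ends of all 4 spermatid genes examined (Prm1, Prm2, Smcp and Tnp1) were covered at day 0 and in no other list, so MEF-only regions found in the day 0 list alone are counted apart, per gene, with the pooled counts.

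The start windows of Inhba, Tgfb1 and Tgfb2 and the internal one of Ltbp1 are printed because these starts were covered in some lists and not in others. The Tgfbr2 window, which lacked a peak at day 12 alone, the shortest list, is not shown. Each is 300 bases of RefSeq sequence (mm10), 250 before the annotated start site and 50 from it onwards, written 5′ to 3′ on the gene's strand. Capitals mark matches, on either strand, to 6 short motifs: TGANTCA (the AP-1 motif), CAGAC (the SMAD box), GGAATG (TEAD), TGTGGT (RUNX), GGGCGG (the SP and KLF box) and CCAAT (NF-Y). A match is only a run of letters and says nothing about binding.

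Inhba, chr13:16011601-16011900, plus strand: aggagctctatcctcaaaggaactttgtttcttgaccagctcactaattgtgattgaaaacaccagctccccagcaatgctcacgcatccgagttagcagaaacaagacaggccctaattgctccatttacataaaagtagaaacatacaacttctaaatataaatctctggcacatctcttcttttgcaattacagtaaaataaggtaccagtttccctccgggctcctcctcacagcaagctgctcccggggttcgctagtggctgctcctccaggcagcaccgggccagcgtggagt

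Tgfb1, chr7:25686752-25687051, plus strand: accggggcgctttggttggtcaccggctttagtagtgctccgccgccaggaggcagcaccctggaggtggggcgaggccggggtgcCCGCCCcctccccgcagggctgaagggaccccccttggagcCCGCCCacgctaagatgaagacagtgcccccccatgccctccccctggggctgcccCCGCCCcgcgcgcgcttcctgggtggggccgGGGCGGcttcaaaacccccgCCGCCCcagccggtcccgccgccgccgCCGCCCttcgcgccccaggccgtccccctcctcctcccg

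Tgfb2, chr1:186705940-186706239, minus strand: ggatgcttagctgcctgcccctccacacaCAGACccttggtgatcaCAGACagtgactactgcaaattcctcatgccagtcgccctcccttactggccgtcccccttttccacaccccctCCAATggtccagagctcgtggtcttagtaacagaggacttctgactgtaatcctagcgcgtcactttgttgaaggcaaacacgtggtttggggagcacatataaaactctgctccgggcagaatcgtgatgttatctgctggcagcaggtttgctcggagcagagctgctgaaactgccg

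Ltbp1 internal start, chr17:75178531-75178830, plus strand: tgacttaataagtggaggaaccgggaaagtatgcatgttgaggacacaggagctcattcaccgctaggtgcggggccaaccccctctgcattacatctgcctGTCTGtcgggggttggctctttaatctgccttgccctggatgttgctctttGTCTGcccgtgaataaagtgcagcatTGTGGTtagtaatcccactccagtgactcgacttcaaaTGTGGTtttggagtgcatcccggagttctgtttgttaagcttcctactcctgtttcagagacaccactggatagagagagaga

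The 4 windows differ in composition and in what they match. The Tgfb1 window is 77.0% G and C and holds 6 matches to GGGCGG, a motif present in 46.2% of the 21262 start windows of protein-coding genes in the table. The Inhba window (47.7% G and C) holds no match to any of the 6 motifs. In the Tgfb2 window there are 2 matches to CAGAC, present in 48.4% of all windows, and 1 to CCAAT, present in 38.2%. The internal Ltbp1 window holds 2 matches to CAGAC and 2 to TGTGGT, a motif present in 15.0% of windows. None of the 4 holds TGANTCA or GGAATG, which occur in 6.99% and 13.6% of all windows. No motif overlapped another in these windows.

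**Figure D1:**
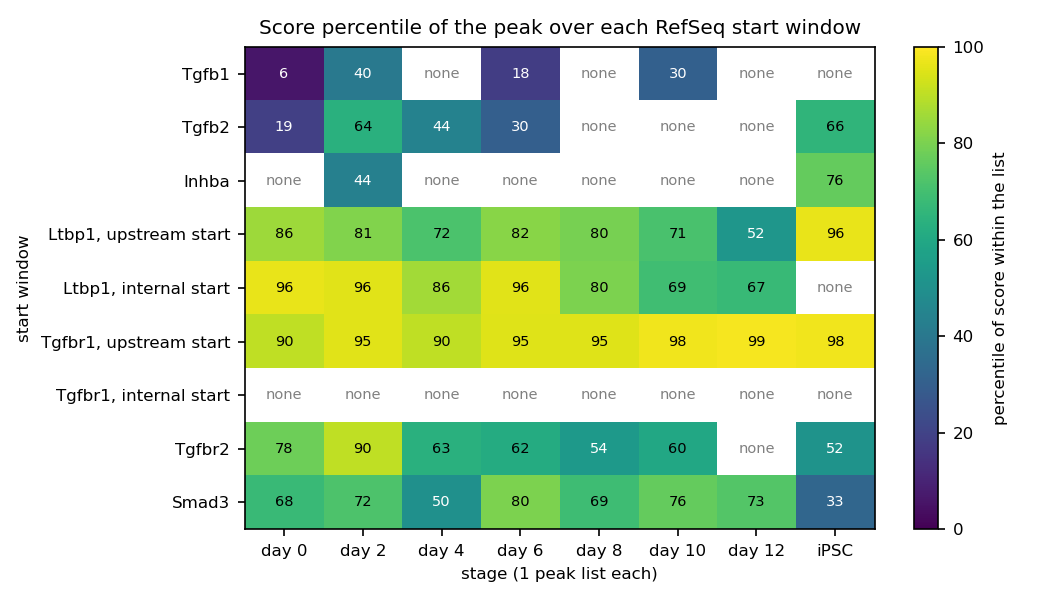
Rank of the peak over each of the 9 RefSeq start windows of 7 of the genes (rows) in each stage's list (columns), as the percentile of its score within that list, with "none" where no peak overlapped the window. The internal Ltbp1 start was covered at every stage except iPSC, and the Inhba window at day 2 and in iPSC alone.

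The start sites of the pathway genes differed in how many lists covered them. Of the 9 start windows, 3 were covered in all 8 lists: the upstream ones of Ltbp1 and Tgfbr1 and that of Smad3. The Tgfbr2 window and the internal Ltbp1 one were covered in 7 lists, that of Tgfb2 in 5, that of Tgfb1 in 4 and that of Inhba in 2, while the internal Tgfbr1 window was covered in none. Either end of a gene was also examined. Of the 9 genes, 8, 8, 7, 8, 6, 7, 5 and 9 had a peak within 1 kb of a gene end at days 0, 2, 4, 6, 8, 10, 12 and in iPSC. Over all protein-coding genes the shares with a covered end were 55.0%, 62.2%, 51.6%, 54.5%, 55.2%, 56.4%, 44.3% and 58.6%, in this order of stages. These counts include far ends, such as that of Inhba at days 0, 2 and 6 and in iPSC and that of Tgfb2 in iPSC. For Inhba and Tgfb2 the annotated start lies inside the gene span, and no other end was covered. Of the gene ends, those of Ltbp1, Tgfbr1, Smad3, Smad7 and Skil were covered in all 8 lists. The shares of all genes and of all start windows covered in all 8 lists were not computed. For the start windows alone, the share over all genes was 49.3%, 56.4%, 46.4%, 48.1%, 50.1%, 51.5%, 39.1% and 52.5% in the same order of stages.

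Among the ligands, Inhba had an internal start whose coverage skipped stages. Its printed start site lies inside the RefSeq span of the gene, not at an end. Inhba encodes the beta A subunit of activin A, a ligand that signals through SMAD2 and SMAD3. A region just downstream of its start site (chr13:16011688-16012513) had a peak at days 2, 4, 8 and 10 and another in iPSC, and had none at day 0, 6 or 12. Its ranks were 43.7, 21.4, 87.8 and 86.3 on days 2, 4, 8 and 10, and 76.5 in iPSC. Within its own list the peak stood above the middle on days 8 and 10 and in iPSC and below it on days 2 and 4, which gives no order between stages. The summits of the 5 peaks stood between 480 and 570 bp downstream of the annotated start site. The peaks of days 4, 8 and 10 began 262, 64 and 71 bp downstream of it, past the end of the printed window, which was overlapped at day 2 and in iPSC alone. At the background of day 8 the region was covered in the same 5 lists, and at that of day 12 it had peaks on days 8 and 10 and in iPSC.

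Inhba had 7 regions in all, of which 3 were iPSC-only, 1 was MEF-only, 1 was shared and 2 were covered at day 2 alone. Here iPSC-only means covered in iPSC and not at day 0, MEF-only means the reverse, shared means covered in both, and intermediate-only means covered on at least 1 of days 2 to 12 and at neither end point. The only MEF-only region, 12.5 kb from the gene's lower end, was covered at day 0 and in no later list, at rank 66.4. At the far end of the gene a broad region (chr13:16032245-16034456) had peaks on days 0, 2 and 6 and in iPSC.

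Tgfb1 and Tgfb2 encode TGF-beta ligands. The peaks at the Tgfb1 start ranked low wherever they were found: the region over it (chr7:25686778-25688226) had ranks of 5.86, 40.4, 16.4, 18.0 and 30.5 on days 0, 2, 4, 6 and 10, and 11.6 in iPSC, with no peak on day 8 or 12. In contrast, a region 2.3 kb into Tgfb1 (chr7:25688526-25689986) was covered in all 8 lists, with ranks between 35.3 and 73.6. It kept all 8 lists at the background of day 8, and days 2, 8 and 12 at that of day 12. The region over the Tgfb1 start was covered on days 2, 4 and 10 at the background of day 8, and in no list at that of day 12.

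The 50 kb around Tgfb1 also take in 6 neighbouring genes, and 10 of the 15 regions lay at the end or in the body of one of them. The region over the Tgfb1 start, which is not among the 10, also lay at or in a neighbour, B9d2. Of the 15, 2 were iPSC-only, 4 were MEF-only, 5 were shared and 4 were intermediate-only. The highest-ranked MEF-only region by its day 0 score (chr7:25710972-25712238, 24.6 kb from the lower end of Tgfb1 and at the end of a neighbour) was covered on days 0 to 10, at rank 95.3 on day 0. The iPSC-only region with the highest score, also at a neighbour's end, was found in iPSC alone at rank 91.3. Assignment to Tgfb1 is therefore by distance only.

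At Tgfb2 the peak near the start differed in position between lists. A region that includes the start site (chr1:186705128-186706225) was covered in all 8 lists, with ranks between 18.9 (day 0) and 74.0 (day 12). This annotated start site lies inside the RefSeq span of Tgfb2, not at its end. The peaks of days 0, 2, 4 and 6 and of iPSC overlapped the printed window, and those of days 8, 10 and 12 did not. Summits lay 184, 524, 34 and -27 bp from the start site at days 0, 2, 4 and 6, downstream being positive. They lay at 464, 470 and 544 bp at days 8, 10 and 12 and at 401 bp in iPSC. The peaks of days 8 to 12 were thus wholly downstream of the start site, beginning 109, 317 and 304 bp from it. These were also among the shallower lists, in which peaks are narrower, and the part of depth in the difference was not tested. At the background of day 8 the region had no peak at day 0 or day 6. With that of day 12 it had peaks on days 8 and 12 alone.

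Tgfb2 was one of 2 genes with more iPSC-only than MEF-only regions, 8 against 5 of its 23. The other was Inhba, 3 against 1. Of the 8 iPSC-only regions at Tgfb2, 7 were covered in iPSC alone, and they ranked between 5.71 and 40.0 there, all in the lower part of the list. The counts were 4 and 2 at the background of day 8 and 1 and 1 at that of day 12. The Tgfb2 MEF-only region with the highest day 0 score, 35.7 kb before the lower end, was covered on every day from 0 to 12.

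Ltbp1 had 2 starts that differed in the stages at which they were covered. LTBP1 binds latent TGF-beta and anchors it in the matrix, and RefSeq gives the gene an upstream start and an internal one that begins a shorter transcript. The upstream start region (chr17:75004952-75006591) was covered in all 8 lists, with ranks of 85.5, 81.0, 71.6, 82.2, 79.5, 71.4, 52.4 and 96.5 in order of stage. The internal start region (chr17:75177805-75179119, 173.0 kb further along the gene) was covered on every day from 0 to 12 and not in iPSC. Its ranks were 96.5, 95.7, 86.1, 95.7, 80.4, 69.2 and 67.3, from the day 0 list to the day 12 list. It was the highest-scored MEF-only region of Ltbp1 in the day 0 list, and both starts kept exactly these stages at the backgrounds of day 8 and of day 12. The iPSC list instead held a peak at chr17:75172487-75173509, upstream of the internal start and in no other list, at rank 91.7.

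Ltbp1 is the longest of the 9 genes, at 387.0 kb, and had the most regions, 78, of which 67 lay in its body. It had 10 iPSC-only and 20 MEF-only regions, with 10 and 17 at the background of day 8 and 3 and 8 at that of day 12. A further 44 were intermediate-only, 30 of them on days 2 to 6 alone and 13 on days 8 to 12 alone. Coverage was highest at day 2, with 45 of the 78 regions, and lowest at day 12, with 6. These were also the longest and the shortest list.

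The receptor starts were covered in iPSC, beside few other regions of Tgfbr2. TGFBR1 and TGFBR2 are the kinase receptors for TGF-beta. The upstream Tgfbr1 start (region chr4:47351655-47353530) was covered in all 8 lists at ranks between 90.3 and 98.7, near the top of each list. The internal start that RefSeq gives for Tgfbr1 (chr4:47385966-47386265) was covered in none. The highest-scored MEF-only region of Tgfbr1 lay 42.6 kb before it, in the body of its neighbour Col15a1, a collagen gene, and was covered on days 0 to 10. Of the 14 regions at Tgfbr1, 1 was iPSC-only, 3 were MEF-only, 2 were shared and 8 were intermediate-only. The 3 covered in iPSC (21.4%, interval 4.66 to 50.8, against 32.2% of regions over all genes) were the start, an intergenic region at 84.8 kb that every list except that of day 12 held, and the iPSC-only one at 96.8 kb, at rank 75.7, both distances from the gene's lower end.

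The Tgfbr2 start (region chr9:116173992-116176014) was covered in every list except that of day 12, with ranks of 77.8, 90.4, 63.3, 61.6, 53.9 and 60.1 on days 0 to 10 and 51.5 in iPSC. It kept these lists at the background of day 8, and days 0, 2, 4, 8 and 10 at that of day 12. The gene's other end was MEF-only and covered on days 0, 2, 4 and 6, at ranks of 25.3, 53.8, 35.3 and 69.6, and in no list after day 6. That end kept these days at the background of day 8 and had no peak in any list at that of day 12. Of 28 regions at Tgfbr2, 2 were covered in iPSC (7.14%, interval 0.877 to 23.5, against the same 32.2%): the start, and a region 2.7 kb outside the far end at rank 11.6. With the exception of these 2 and of 5 MEF-only regions, the other 21 were intermediate-only, which is 75.0% of its regions against 48.8% over all genes. No interval was computed for this share, nor its value at a matched background. Of the 21, 5 were covered at day 2 alone, the deepest list.

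The intermediate-only regions of Tgfbr2 comprised 12 covered on days 2 to 6 alone (57.1%), 8 on days 8 to 12 alone (38.1%) and 1 on both, against 53.3%, 40.1% and 6.60% over all genes. Of the 8 late ones, 3 were covered at day 12 alone. Of the early ones 7 were in the gene body. A region at chr9:116115906-116116878 ranked 91.3, 11.7 and 64.9 on days 2, 4 and 6, and one at chr9:116138067-116139351 ranked 90.1, 37.8 and 89.2 on those days. Sites upstream of the start, between genes, included late ones and the 1 covered on both. They were picked out after their values were seen. Among these, chr9:116186811-116187748 ranked 62.4 at day 8 and 77.7 at day 10, chr9:116207889-116208304 ranked 83.5 and 65.2, and chr9:116223335-116223678 ranked 48.0 and 68.5. These 3 upstream regions were covered at days 8 and 10 at either matched background too, and none was covered at day 0, at day 12 or in iPSC. The first of them was also covered at day 6, at rank 13.7, and is the 1 covered on both.

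**Figure D2:**
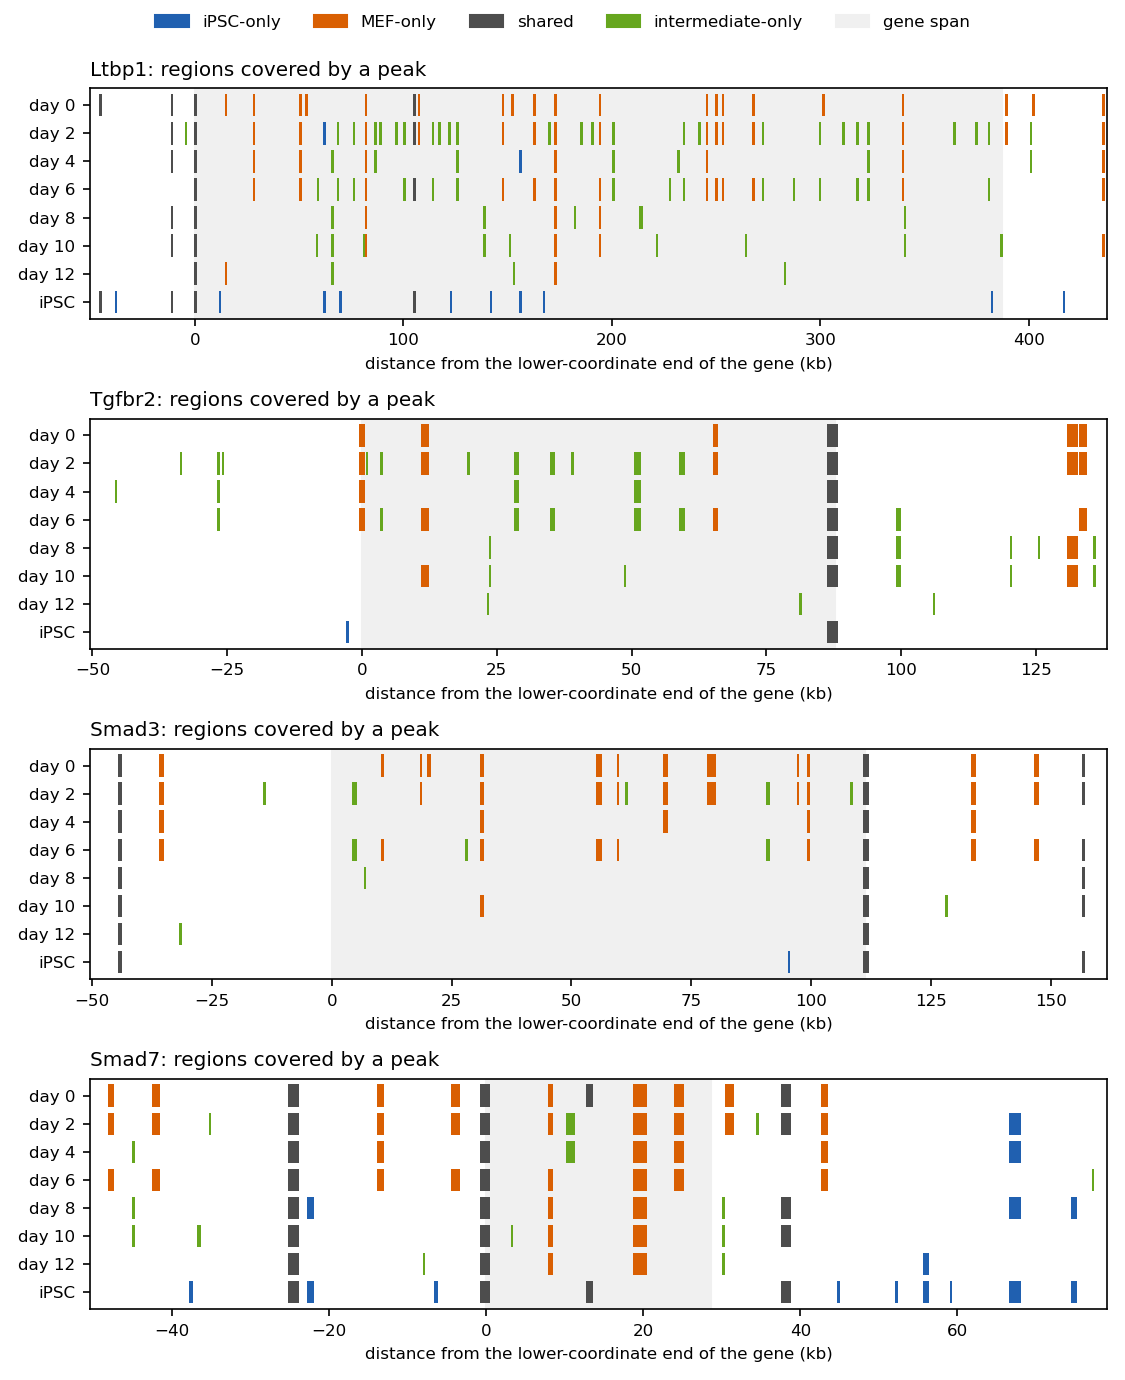
Regions covered by a peak (blocks) at each stage (rows, day 0 at the top) around Ltbp1, Tgfbr2, Smad3 and Smad7, by distance in kb from the lower-coordinate end of the gene; colours give the class of the region and grey the gene span, and narrow regions are widened to stay visible. The orange MEF-only blocks of Smad3 end at day 6 with 1 exception at day 10, and the late green blocks of Tgfbr2 stand at days 8, 10 and 12.

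Smad3 had the most one-sided change between fibroblasts and iPSC. SMAD3 is the DNA-binding transducer that carries the TGF-beta signal to target genes. Smad3 had 1 iPSC-only region and 13 MEF-only regions of 26, and 10 of these 13 lay in the gene body. Over all genes 19.8% of regions were iPSC-only and 19.1% were MEF-only. On days 2, 4 and 6, peaks covered 11, 5 and 8 of the 13, and on days 8, 10 and 12 they covered 0, 1 and 0. Of MEF-only regions over all genes, 64.7%, 28.7%, 52.6%, 15.4%, 14.3% and 4.01% were covered on these days. Coverage after day 6 was thus low there too. The region that returned at day 10 (chr9:63677606-63678480, 31.3 kb from the gene's lower end) was the one with the highest day 0 score, with ranks of 89.7, 84.0, 74.3 and 78.0 on days 0 to 6 and 40.6 at day 10. Meanwhile the Smad3 start (region chr9:63757685-63758813) was covered in all 8 lists at ranks between 33.2 (iPSC) and 80.2 (day 6). At the background of day 8 it kept all 8 lists. With that of day 12 it had no peak at day 0, at day 4 or in iPSC.

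The Smad3 counts depended on the background pileup at the lower setting. Smad3 had 1 iPSC-only region beside 11 MEF-only ones at the background of day 8, but 2 and 2 at that of day 12. Only 16224 peaks of day 0 and 15581 of iPSC were kept at the latter. Of the 13, 12 were also covered in a list after day 0. The single iPSC-only region (chr9:63741846-63742436) lay in the gene body at rank 83.5 in iPSC and in no other list. The 13 regions were mostly of middle rank at day 0, between 13.2 and 89.7 with a median of 57.8.

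Of the inhibitors, Smad7 had as many iPSC-only as MEF-only regions within 50 kb, but not closer to the gene. SMAD7 is induced by TGF-beta and turns the receptor off. Smad7, on chromosome 18, had 9 iPSC-only and 9 MEF-only regions of 31, 8 and 8 at the background of day 8 and 4 and 5 at that of day 12. The counts were 2 and 7 in a 20 kb window, 0 and 3 over the gene span alone, and 5 and 8 in the better-scored 50% of each list. Their places differed: 3 of the 9 MEF-only regions and 0 of the 9 iPSC-only regions lay in the gene body, and 6 of the 9 iPSC-only ones lay between 44.9 and 74.9 kb past the lower end, up to the body of its neighbour Ctif. Regions 8.2 and 19.6 kb into Smad7 were still covered at day 12 and were absent in iPSC, and the first of them also had no peak at day 4. The region at 19.6 kb ranked 56.8, 39.3, 60.1, 51.5, 30.5, 71.8 and 74.9 on days 0 to 12. The Smad7 start was covered in all 8 lists, at ranks between 52.4 (day 12) and 92.4 (iPSC). It kept all 8 at the background of day 8, and all except day 6 at that of day 12.

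Beyond the end of Smad7, at 30.2 kb, a region was covered on days 8, 10 and 12 and at no other stage, at ranks of 53.4, 71.2 and 62.0, and it held at both matched backgrounds. A region 13.4 kb before the gene had the opposite timing, with ranks of 78.0, 95.7, 74.6 and 93.7 on days 0, 2, 4 and 6 and no peak afterwards, also at both matched backgrounds. At 24.5 kb before the gene a region was covered in all 8 lists. It kept all 8 at the background of day 8, and all except iPSC at that of day 12.

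Skil had a start covered at every stage. SKIL binds SMAD proteins and holds their target genes silent. The region over its start (chr3:31094509-31096128) was covered in all 8 lists, at ranks between 38.6 (iPSC) and 91.1 (day 12). This start region kept all 8 lists at the background of day 8, but days 8, 10 and 12 alone at that of day 12. A separate region 1.3 kb before it (chr3:31093325-31094210) was MEF-only and covered on days 0, 2, 4 and 6 alone, at ranks of 38.8, 48.4, 58.1 and 42.8. The MEF-only region with the highest day 0 score, 14.1 kb into the gene, had the same stages at ranks of 61.3, 67.3, 16.4 and 83.1. Both kept these stages at the background of day 8. At that of day 12 the one before the start had no peak in any list and the other had one at day 6 alone. Of 18 regions, 3 were iPSC-only and 5 were MEF-only, and none of these 5 was covered after day 6, where 78.8% of MEF-only regions over all genes were last covered by day 6. These counts were 2 and 3 at the background of day 8 and 0 and 1 at that of day 12.

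**Figure D3:**
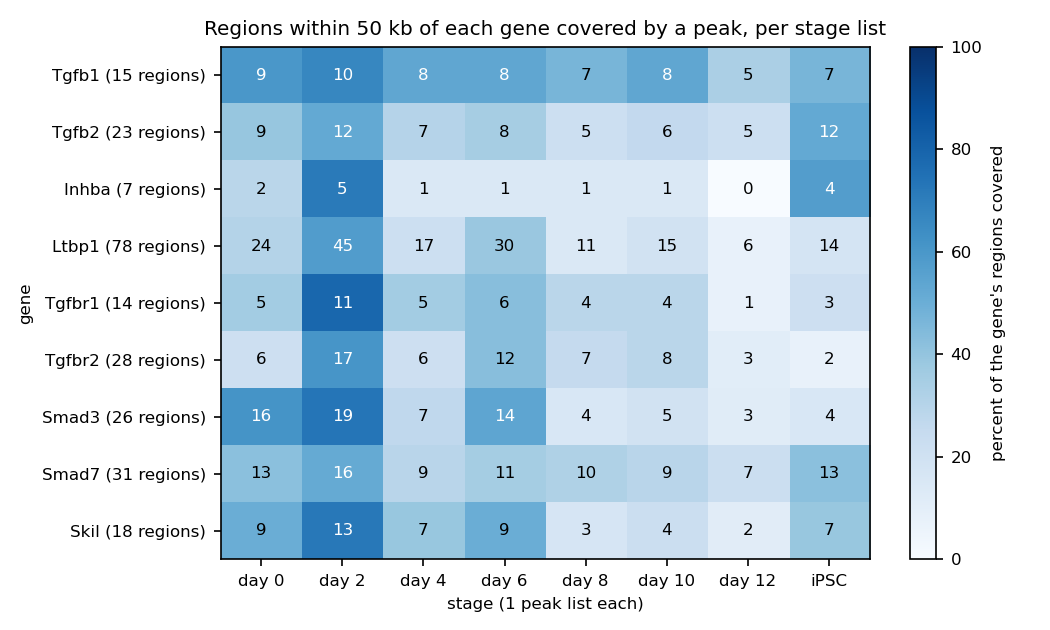
Number of regions within 50 kb of each gene (rows, total in brackets) covered by a peak at each stage (columns), with the shade giving the percent of that gene's regions. Day 2, the longest list, has the highest count for all 9 genes, tied with iPSC at Tgfb2, and Ltbp1 stands at 45 of 78 there.

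Pooled, the 240 regions leaned to fibroblasts. Of them 38 were iPSC-only (15.8%, interval 11.5 to 21.1), 65 were MEF-only (27.1%, 21.6 to 33.2), 28 were shared (11.7%, 7.89 to 16.4) and 109 were intermediate-only (45.4%, 39.0 to 51.9). Over the regions near any protein-coding gene the shares were 19.8%, 19.1%, 12.4% and 48.8%. The MEF-only share was thus above the share over all genes by more than its counting interval, while the other 3 were within theirs. At the background of day 8 the members had 30 iPSC-only (15.5%) and 52 MEF-only regions (26.8%) of 194, against 18.2% and 18.1% over all genes. The lean held with regions near any gene end left out, at 35 and 60 of 215 (16.3% and 27.9%), against 20.5% and 20.5% over all genes. Among the 65 in the MEF-only class, 10 had a peak at day 0 alone and 55 had one in at least 1 later list as well, which is 84.6%, against 71.9% over all genes. The 10 were 4 at Ltbp1, 2 at Tgfb1 and 1 each at Tgfb2, Inhba, Smad3 and Skil.

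Per gene, 2 of the 9 had more iPSC-only regions (Tgfb2 and Inhba), 6 had more MEF-only regions and 1 (Smad7) had equal numbers. Over all protein-coding genes 41.1% had more iPSC-only and 31.6% had more MEF-only regions. The median of iPSC-only less MEF-only counts per gene was -2.0 for the 9 genes and 0.0 for all genes, of which 5960 had equal counts. These are raw counts, not matched for the number of regions per gene, so the medians are not on a like footing. Ltbp1 and Smad3 held 33 of the 65 MEF-only regions between them, and the other 7 genes had 27 iPSC-only (19.9%, 13.5 to 27.6) and 32 MEF-only (23.5%, 16.7 to 31.6) of 136. Without Ltbp1 and Smad3, both shares over all genes were therefore inside the intervals.

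**Figure D4:**
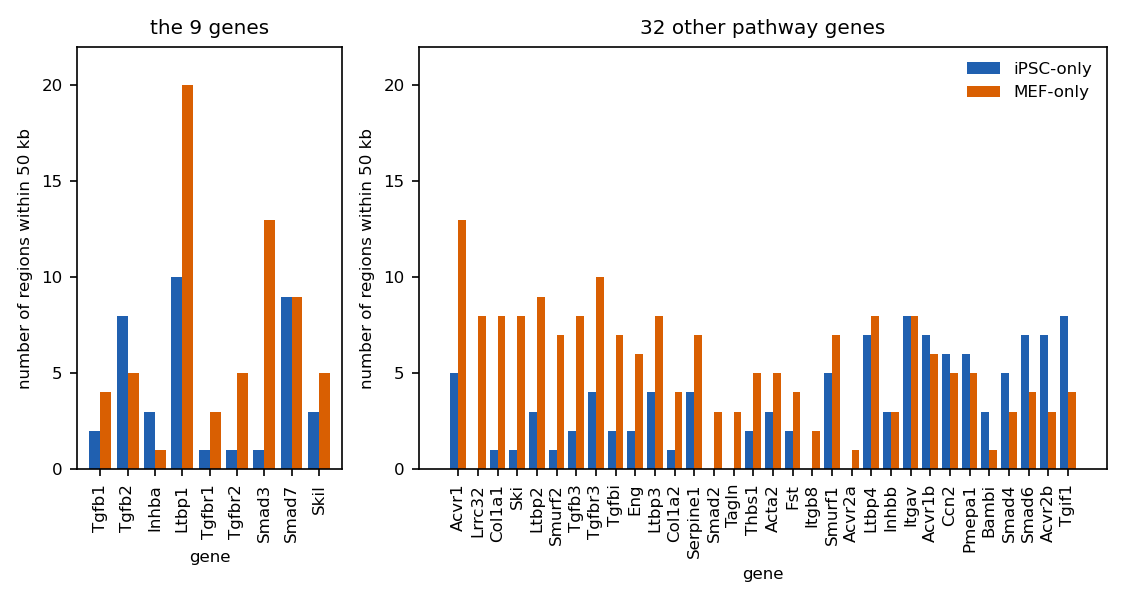
Number of iPSC-only regions (blue, left bar) and MEF-only regions (orange, right bar) within 50 kb of each of the 9 genes and of 32 other pathway genes, which are ordered by the difference. Smad3 stands at 1 and 13, Ltbp1 at 10 and 20, and Smad7 at 9 and 9.

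The 32 other genes of the pathway, taken from a list of ligands and latency proteins, receptors, SMADs, inhibitors and targets, were examined in the same way. Of these, 8 had more iPSC-only regions, 22 had more MEF-only regions and 2 had equal numbers. The totals were 109 iPSC-only regions and 183 MEF-only ones. The median difference was -2.5, again not matched for the number of regions per gene. The largest excess of MEF-only regions was shared by Acvr1, a type I receptor of the family, with 5 iPSC-only and 13 MEF-only regions, and Lrrc32, which encodes a cell-surface anchor of latent TGF-beta, with 0 and 8. Next came Ski, a relative of Skil, and Col1a1, the collagen I gene, each with 1 and 8. On the other side stood Acvr2b, a type II activin receptor, with 7 and 3, Tgif1, a transcriptional repressor that binds SMAD proteins, with 8 and 4, and Smad6, an inhibitory SMAD, with 7 and 4. Col1a1 is also a fibroblast marker used to check the labels.

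The fibroblast regions left the lists after day 6. On days 2, 4 and 6, peaks covered 53 (81.5%), 25 (38.5%) and 42 (64.6%) of the 65 MEF-only regions, against 64.7%, 28.7% and 52.6% over all genes. On days 8, 10 and 12 they covered 10 (15.4%), 13 and 5 (7.69%), against 15.4%, 14.3% and 4.01% over all genes. The course was therefore close to that of fibroblast regions elsewhere, and the share at day 2, the deepest list, was above the one over all genes by more than the interval of 70.0 to 90.1. At the background of day 8 that share was 73.1% (interval 59.0 to 84.4), against 64.3% over all genes, a difference inside counting error. The last stage at which a MEF-only region was seen was day 6 for 30 of the 65 (46.2%, interval 33.7 to 59.0), against 36.4% over all genes. With lists at the background of day 8 the shares at days 6 and 8 were 65.4% and 19.2% for the members, and 52.4% and 20.5% over all genes. With lists at that of day 12 they were 54.2% and 37.5% of 24 member regions, against 42.6% and 31.2% over all genes. The size of the drop thus depended on the background compared. List lengths were unequal at this last setting, which kept 13925 peaks at day 6 and 27801 at day 8.

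**Figure D5:**
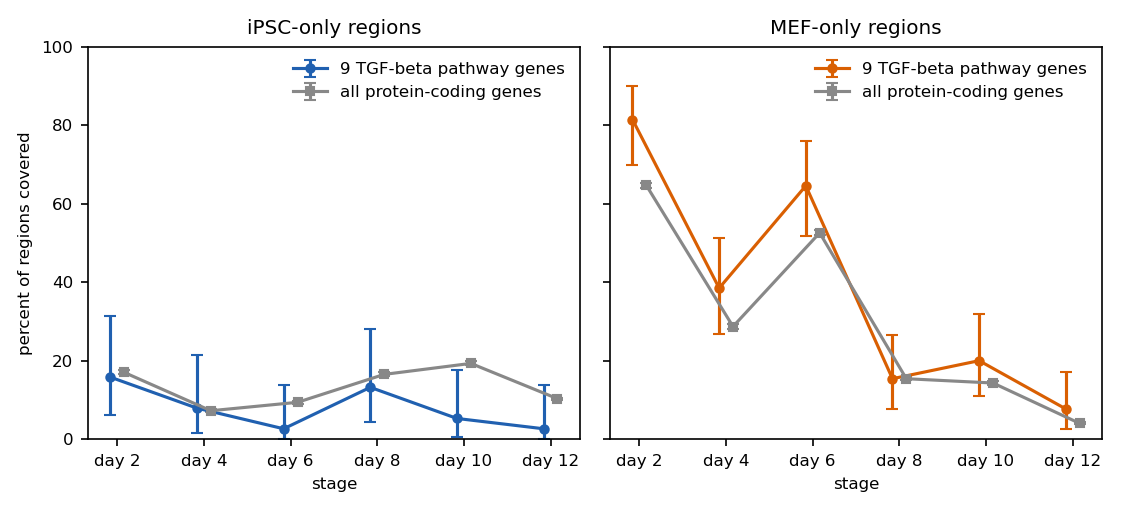
Percent of the iPSC-only (left) and MEF-only (right) regions covered at days 2 to 12, for the 9 pathway genes (coloured circles) and for all protein-coding genes (grey squares); bars are exact 95% intervals for counting error. MEF-only coverage of the 9 genes stood at 64.6% on day 6 and 15.4% on day 8, beside 52.6% and 15.4% over all genes.

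The regions kept between days 6 and 8 were mainly shared ones. Of the 99 pathway regions covered at day 6, 29 (29.3%, interval 20.6 to 39.3) were covered at day 8, against 40.5% over all genes. At the background of day 8 the shares were 34.7% of 72 regions and 49.1%, and at that of day 12 48.1% of 27 regions and 63.6%. By class, 19 of the 23 shared regions of day 6 (82.6%), 9 of the 42 MEF-only ones (21.4%), 1 of the 33 intermediate-only ones (3.03%) and 0 of 1 iPSC-only region were covered at day 8. The split by class was not computed over all genes, so it does not set the pathway genes apart. Without regions within 1 kb of any gene end, 16 of 82 (19.5%, interval 11.6 to 29.7) were kept, against 25.1% over all genes, a share inside the interval. Low shares were also found at other steps: 41.2% of the regions of day 2 were covered at day 4 and 36.7% of those of day 10 at day 12, against 43.7% and 41.2% over all genes. The remaining steps between days kept 83.9% (day 0 to 2), 74.6% (day 4 to 6) and 80.8% (day 8 to 10), against 76.8%, 77.3% and 72.4% over all genes.

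Most iPSC-only regions were covered in iPSC alone. Of the 38 iPSC-only regions, 28 (73.7%, interval 56.9 to 86.6) were covered in iPSC and at no earlier stage, against 64.7% over all genes. Of the other 10, 6 were first covered at day 2, 1 at day 4 and 3 on days 8 to 12. Coverage stood at 15.8%, 7.89% and 2.63% on days 2, 4 and 6, against 17.0%, 7.23% and 9.38% over all genes. It stood at 13.2%, 5.26% and 2.63% on days 8, 10 and 12, against 16.5%, 19.3% and 10.3% over all genes. The count at day 10 was 2 of 38, and the interval of 0.644 to 17.7 stayed below the 19.3% over all genes. With lists at the background of day 8 it was 3 of 30 (10.0%, interval 2.11 to 26.5), against 25.5% over all genes, so the difference was no longer outside counting error. Both regions of day 10 had a peak on days 2 and 8 as well: they were the Inhba start region and a region at the end of Rrp15, a neighbour of Tgfb2.

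More intermediate-only regions were covered on days 2 to 6 alone than on days 8 to 12 alone, whose lists were shallower. Of the 109, 72 (66.1%, interval 56.4 to 74.9) were covered on days 2 to 6 alone, 32 (29.4%, 21.0 to 38.8) on days 8 to 12 alone and 5 on both, against 53.3%, 40.1% and 6.60% over all genes. A large part of the early ones, 33, was covered at day 2 alone, the deepest list, and without that list 76 intermediate-only regions remained. The split into early and late was not computed at a matched background, so the part of depth in it was not tested. Intermediate-only regions were narrow, with a median width of 439 bp beside 405 bp over all genes, while shared regions had 1360 bp beside 1309 bp and MEF-only regions 900 bp beside 751 bp. Of the 109, 69 lay in the body of a pathway gene, as did 38 of the 65 MEF-only and 13 of the 38 iPSC-only regions. Positions were not counted over all genes, so these numbers have no share to stand beside. Of the 124 regions in a gene body, 67 lay in Ltbp1, the longest of the genes.

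Genes whose stage profile was most like that of a pathway gene were sought for the 3 genes with the most regions. The measure was the Euclidean distance between the shares of a gene's regions covered at the 8 stages, over 13766 genes with at least 10 regions. For Ltbp1 the nearest were Sipa1l1 (distance 0.070), Slit3 (0.082) and Dync2li1 (0.086). For Smad7 they were Ltbp4 (0.094), a relative of Ltbp1, Chd2 (0.094) and Nup107 (0.097). For Tgfbr2, the nearest were farther away: Rap2c (0.116), Ttc3 (0.119) and Ppfia1 (0.137). These are descriptions over 8 lists that all genes share.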

How the data were processed

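ATAC-seq was run on 16 samples in 8 stages. The submitters' processing notes name build mm10, MACS2 2.1.2, Bowtie2 2.2.5, deepTools 3.4.3, fastp 0.20.1 and SAMtools. Neither their order and settings, nor any Tn5 shift, nor the way in which both samples of a stage entered its list is given in the sources used here. For each stage the authors deposited a single list of peaks with a score, a fold enrichment (a ratio) and a −log10 p-value at the summit. Columns not named here were not used, except positions. Sequencing depth is unknown. Summit pileup and local background were recovered from the deposited fold and −log10 p-value, matched within 0.001.

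From these lists, with Python 3.11.15, NumPy 2.4.6, pandas 2.3.3 and SciPy 1.17.1, peaks of the 8 lists were merged into regions (overlap of at least 1 bp, chromosomes 1 to 19, X and Y), and regions were assigned to every gene span within 50 kb. For matched backgrounds, the pileup and background of each peak of a deeper list were multiplied by the ratio of background pileups, and the peak was kept if its Poisson p-value still passed the weakest of the day 8 or day 12 list. The functions were tested on simulated data. Gene spans came from RefSeq GRCm38.p6, and start windows from a RefSeq table that matched 7 of the 9 genes, with Skil and Smad7 not among them.

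All 9 genes are named. Of the other pathway genes, the 3 with the largest excess in each direction are named (with a tie). Regions named are those at gene ends, the highest-scored MEF-only and iPSC-only region, the highest-ranked intermediate-only region and those in all 8 lists, and others are further examples chosen after their values were seen. The genes and lists were chosen with earlier results of these data known. The alternatives took lists of 31915 peaks, the better-scored 50% of each, matched backgrounds, a 50% overlap, windows of 20 kb and 2.5 kb, the gene span alone, lists left out and, added after seeing the data, regions away from gene ends.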

Additional observations from a re-analysis of the deposited data

How the results depend on the processing

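No paired analysis was possible because each stage has 1 deposited list, with no replicate numbers in its columns, and no result comes from a test. For the same reason no replicate could be left out. With 1 list per stage, depth unknown in reads and background pileups that differ between stages, weak regions of the shallow lists (days 8, 10 and 12) may be missed.

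Settings that keep fewer peaks or a smaller window leave fewer regions by construction. The iPSC-only, MEF-only, shared and intermediate-only counts were 18, 38, 13 and 55 in the better-scored 50% of each list, 13, 24, 6 and 55 at the background of day 12, and 14, 39, 11 and 71 for the gene span alone. In a 20 kb window iPSC-only and shared counts were 23 and 17, away from gene ends the shared count was 15 (added after seeing the data), and lists cut to equal length gave 64 intermediate-only regions. In each of these the MEF-only count stayed above the iPSC-only count.

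MEF-only coverage at day 2 was 65.8% of 38 regions in the better-scored 50% and 47.8% of 46 in lists of equal length. At the background of day 12 it was 37.5% at day 8, 41.7% at day 10 and 25.0% at day 12, of 24 regions, and day 12 stood at 18.4% in the better-scored 50%. The cause was not tested. For iPSC-only regions, day 2 coverage was 3.57% in lists of equal length, days 4 and 6 were at 0 in the better-scored 50% (of 18) and at the background of day 12 (of 13), days 6 and 12 were at 0 in a 20 kb window (of 23) and for the gene span alone (of 14), and day 10 was 23.1% at the background of day 12.

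Genes with a covered end fell to 4, 5, 4 and 3 at days 0, 2, 4 and 6 and to 3 in iPSC at the background of day 12, and iPSC had 4 in the better-scored 50% and 5 in lists of equal length. Other pathway genes with more iPSC-only regions numbered 3 in the better-scored 50%, 4 in lists of equal length, 4 at the background of day 12 and 5 for the gene span alone. Of the main results, 147 recomputed values stayed within the spread set for them and 43 moved. Among the per-gene counts and the share of day 6 regions kept at day 8, 73 stayed and 61 moved. Some of those that stayed could not have moved. The 50% overlap changed nothing, because it could be met by the peak's own length and each peak lies within its merged region. Leaving out day 2 or day 12 could not change the iPSC-only, MEF-only or shared counts.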
